A study of Homo sapiens with 16 samples.

Results

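The m6A methyltransferase complex was followed through its 9 genes, METTL3, METTL14, WTAP, VIRMA, ZC3H13, RBM15, RBM15B, CBLL1 and METTL16, in a human microglial cell line without and with a METTL3 knockout label. The genes were found by their symbols alone, and each of the 9 matched 1 of the 60669 genes of both tables. The cells were HMC3, an established line labelled as microglial, and 16 libraries were listed from 2 genotypes, WT and METTL3 KO. Smart-seq2 on polyadenylated RNA gave 5 libraries of each genotype, and rRNA depletion followed by the NEBNext Ultra II Directional kit gave 3 of each. No treatment, time point, guide or clone is named for either genotype, so whether the knockout label stands for 1 clone or a pool is not known here. Nor is it stated that the libraries of a label came from separate cultures, so p-values measure the spread between these libraries, which may be technical.

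The complex places N6-methyladenosine, abbreviated m6A, on adenosines of messenger RNA. METTL3 carries the catalytic site and METTL14 is its partner that helps hold the RNA, while WTAP, VIRMA, ZC3H13, CBLL1, RBM15 and RBM15B form the regulatory part that brings the catalytic pair to its sites. METTL16 is a separate m6A methyltransferase that acts on hairpins of the MAT2A mRNA and on the U6 small nuclear RNA.

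For the poly(A) libraries the data used here are the authors' table of the comparison of the genotypes, without values of single libraries. For the rRNA-depleted libraries the values are TPM, a transcript level per gene length scaled so that every library adds to the same total. The depth recovered from these TPM lay between 266157 and 487272 reads in the 3 wild-type libraries and between 512627 and 1267171 reads in the 3 knockout-labelled ones. Knockout-labelled libraries 1 and 2 could not be told apart from repeat draws of 1 library (chi-square 1.02 per degree of freedom over 10120 genes, p = 0.065) and were counted as 1 sample, which leaves 3 samples against 2. The microglial label was checked against 12 marker genes: 8 of them, among them AIF1, CX3CR1, P2RY12, TMEM119, PTPRC and SPI1, were listed at 0 in all 6 libraries. The 6 fibroblast or pericyte markers summed to between 10359 and 12827 TPM in wild-type libraries and to between 1162 and 1308 TPM in knockout-labelled ones. COL1A1 carried that sum (means of 10669 and 819 TPM), while THY1 went the other way (means of 127 and 264 TPM). The 3 neuronal markers summed to at most 3.63 TPM in the wild type and to between 10.6 and 11.9 TPM under the knockout label. Astrocyte, oligodendrocyte and endothelial markers summed to at most 5.62 TPM in any library. The part of these differences in the results below was not tested. In such bulk RNA, fewer cells that express a gene and less RNA of it per cell cannot be told apart.

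In the rRNA-depleted libraries the complex was not shifted as a unit. VIRMA, CBLL1, RBM15 and RBM15B were higher in the knockout-labelled libraries, METTL16 was lower, and METTL3, METTL14, WTAP and ZC3H13 did not pass the test. Thus 5 of 9 members passed (limma on log2(TPM + 1), Benjamini-Hochberg adjusted p under 0.05 over 14789 genes), beside 35.3% of all genes tested, and 4 rose and 1 fell, beside 22.9% and 12.4% of all genes. Of the calls over all genes 64.8% were higher, which became 48.6% with median ratio scaling and 42.9% with the GC trend removed. Samples of the labels did not overlap for 8 of 9 members, beside 62.7% of all genes, and the 6 libraries for 7 of 9, beside 58.4%. The median log2 change was 0.48 over the 9 members and 0.41 over all genes tested. Members thus sat near the median of all genes but spread from -1.13 to 2.91 on the log2 scale, where the SD over all genes was 1.60. Knockout-labelled library 3 bears on every call: without it the knockout label has 1 sample, assumed to vary like the wild type, and limma called 0 of 9 members, with 4 at an unadjusted p under 0.05, beside 11.2% of all genes called. With reads thinned to the shallowest library 3 members passed (VIRMA, CBLL1 and METTL16), beside 24.0% of all genes.

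**Figure D1:**
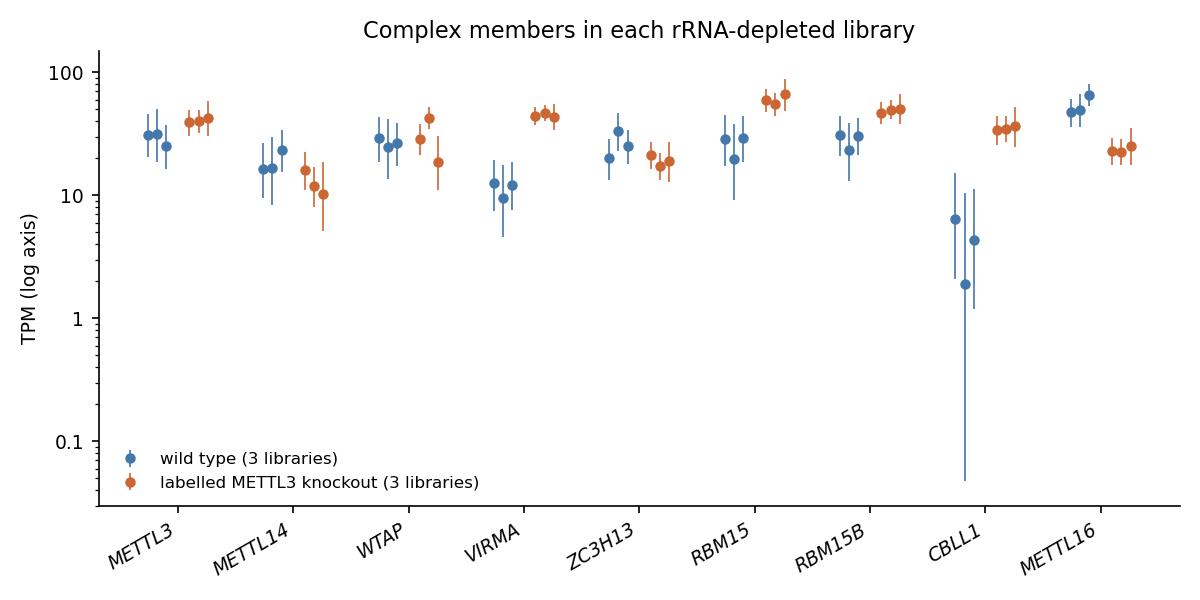
TPM of each of the 9 genes in the 6 rRNA-depleted libraries, on a log axis. Points are libraries 1 to 3 of each label from left to right and bars are exact 95% Poisson intervals of the recovered reads, which cover counting error only. VIRMA, RBM15, RBM15B and CBLL1 lie higher in all 3 knockout-labelled libraries and METTL16 lies lower, while the points of WTAP overlap.

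METTL3, the catalytic subunit and the gene named by the knockout label, lies on chromosome 14 at 21498133 to 21511375 (minus strand, GRCh38, GENCODE 29). Libraries 1 to 3 of the wild type gave METTL3 31.2, 31.6 and 25.4 TPM, and libraries 1 to 3 under the knockout label gave 39.2, 39.96 and 42.7 TPM. Values below keep this order of libraries. Every knockout-labelled library was above every wild-type one, so the mRNA was not depleted under the label and its level does not check that label. The log2 change was 0.48 (SE 0.19, 95% interval 0.0021 to 0.95), which did not pass (limma adjusted p 0.106), and relative to the median of all genes it was 0.07. Removing the trend with GC content turned the sign, to -0.37 (limma adjusted p 0.270). With the 6 libraries as separate samples the limma adjusted p was 0.0486, and with the replicate block added it was 0.113. METTL3 shares 388 exonic bases with TOX4 on the opposite strand, which went from between 23.6 and 33.6 TPM to between 54.4 and 62.8 TPM, and whether reads were counted by strand is not stated. Among 12105 genes with a mean of at least 5 TPM, the profiles over the 6 libraries closest to METTL3 were those of ATP6V1D, SYNE2 and PDZD8, at distances of 0.073, 0.076 and 0.096 on the centred log2(TPM + 1) scale. The closest other member was RBM15B, at 0.63.

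METTL14, the partner of METTL3 (chromosome 4, 118685368 to 118715433, plus strand), had lower values under the knockout label. Its wild-type values were 16.5, 16.6 and 23.6 TPM, set against 16.1, 11.97 and 10.4 TPM under the knockout label, from 11 to 33 reads per library. The groups did not overlap, but by only a narrow gap between the highest knockout-labelled and the lowest wild-type library. Its log2 change was -0.59 (SE 0.31, 95% interval -1.37 to 0.20), which did not pass (limma adjusted p 0.200), and with the GC trend removed it was -1.66 and passed (limma adjusted p 0.0116). METTL14 has the lowest transcript GC content of the members, 38.4%, where the median over all genes tested is 48.5%. The ratio of METTL14 to METTL3 within a library, which no scaling of that library can change, was 0.53, 0.52 and 0.93 in the wild type and 0.41, 0.30 and 0.24 under the knockout label. That ratio was lower in all 3 knockout-labelled libraries.

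WTAP, the adaptor that ties the catalytic pair to the regulatory subunits (chromosome 6, 159725585 to 159756319, plus strand), was at 29.2, 24.9 and 26.7 TPM in the wild type and at 28.7, 42.8 and 18.8 TPM under the knockout label. Its wild-type libraries lay close together, and the knockout-labelled ones spread to both sides of them. The log2 change of -0.04 (SE 0.31) had a 95% interval from -0.84 to 0.75, so a change of either sign within it was not excluded. WTAP was also the member on which knockout-labelled libraries 1 and 2 differed most, with 50 and 91 reads, and without knockout-labelled library 3 its log2 change was 0.40 (limma adjusted p 0.247).

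VIRMA, the large scaffold that is known to guide methylation towards the 3′ end of mRNAs, rose. It lies on chromosome 8 at 94487693 to 94553529 (minus strand). VIRMA had 12.5, 9.61 and 12.2 TPM in the wild type and 44.5, 46.8 and 43.8 TPM under the knockout label. Both groups were tight and far apart, and the mean rose 3.91-fold, starting at 11.4 ± 1.60 TPM (SD, n = 3) and reaching 44.7 ± 1.33 TPM (SD, n = 2). On the log2 scale this was 1.89 (SE 0.24), and the limma adjusted p of 0.00474 was the smallest of the 9 members. With the GC trend removed it was 0.95 (limma adjusted p 0.0321), and without knockout-labelled library 3 it was 1.91 with a limma adjusted p of 0.0584.

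CBLL1, also called HAKAI, a RING-type ubiquitin ligase found in the regulatory part, had the largest rise of the members. It lies on chromosome 7 at 107743697 to 107761667 (plus strand). Wild-type CBLL1 was measured at 6.46, 1.89 and 4.37 TPM, from 5, 1 and 4 reads, and knockout-labelled CBLL1 at 34.2, 34.98 and 36.5 TPM, from 56, 70 and 31 reads. The counts set the precision here: the single read of wild-type library 2 has an exact 95% Poisson interval of 0.0478 to 10.5 TPM, which still ends below the 24.8 TPM at the lower end of the interval for knockout-labelled library 3. The mean rose 8.39-fold, starting at 4.24 ± 2.29 TPM (SD, n = 3) and reaching 35.6 ± 1.35 TPM (SD, n = 2). In log2 units the rise was 2.91 (SE 0.50), and limma gave an adjusted p of 0.0108. With the GC trend removed CBLL1 was at 1.95 (limma adjusted p 0.0321). Without knockout-labelled library 3 the log2 change was 2.87 and did not pass (limma adjusted p 0.119). CBLL1 shares 333 exonic bases with its antisense gene CBLL1-AS1, which was at 0 to 12.2 TPM in wild-type and at 0 to 6.81 TPM in knockout-labelled libraries.

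ZC3H13, which is known to anchor the regulatory part in the nucleus (chromosome 13, 45954465 to 46052759, minus strand), had 20.01, 33.3 and 25.1 TPM in the wild type and 21.2, 17.3 and 18.9 TPM under the knockout label. Knockout-labelled library 1 lay inside the wild-type range. The log2 change of -0.40 (SE 0.28, 95% interval -1.11 to 0.30) did not pass (limma adjusted p 0.310), and with the GC trend removed it was -1.30 and did (limma adjusted p 0.0340). CBLL1 and VIRMA, of the same regulatory part, stood higher relative to ZC3H13 in every knockout-labelled library. The ratio of CBLL1 to ZC3H13 was 0.32, 0.057 and 0.17 in the wild type and 1.61, 2.02 and 1.94 under the knockout label, and that of VIRMA to ZC3H13 went from between 0.29 and 0.62 to between 2.10 and 2.70.

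RBM15 and its paralog RBM15B are RNA-binding proteins that recruit the complex to U-rich stretches, among them those of XIST. RBM15 (chromosome 1, 110338506 to 110346681, plus strand) went from 28.8, 19.9 and 29.5 TPM to 59.6, 55.1 and 66.4 TPM, with no overlap between the groups. Its mean rose 2.37-fold, and the log2 change was 1.23 (SE 0.24; limma adjusted p 0.0146). RBM15B (chromosome 3, 51391268 to 51397908, plus strand) went from 30.9, 23.4 and 30.7 TPM to 46.9, 49.9 and 50.6 TPM, a 1.75-fold higher mean. The RBM15B log2 change of 0.79 (SE 0.20; limma adjusted p 0.0315) was the weakest of the calls: it was 0.45 when scaled by median ratio (limma adjusted p 0.131), and it passed in 8 of 16 alternatives. The lost calls of RBM15B included those without wild-type library 1 (limma adjusted p 0.0534), without wild-type library 3 (limma adjusted p 0.0529) and without knockout-labelled library 3 (limma adjusted p 0.158). RBM15 lost its call with reads thinned (limma adjusted p 0.0675) and without knockout-labelled library 3 (limma adjusted p 0.130). RBM15B shares 1325 exonic bases with DCAF1 on the opposite strand, and DCAF1 went from between 12.1 and 13.4 TPM to between 31.1 and 43.1 TPM. RBM15 and RBM15B are related in sequence, so reads could be split between them.

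METTL16 was the 1 member called lower, beside negative values of METTL14 and ZC3H13 that did not pass. In the wild type METTL16 was the most abundant. It lies on chromosome 17 at 2405562 to 2511891 (minus strand). METTL16 had 47.6, 49.8 and 65.7 TPM in the wild type and 22.9, 22.7 and 25.3 TPM under the knockout label, from 35 to 98 reads per library. All 3 knockout-labelled values lay far below the lowest wild-type value, and the mean was 2.26-fold lower (54.3 ± 9.87 TPM, SD, n = 3, against 24.04 ± 1.78 TPM, SD, n = 2). The log2 change was -1.13 (SE 0.21; limma adjusted p 0.0127), or -1.54 relative to the median of all genes. Over the 16 alternatives it ran from -1.71 to -0.99. The call was lost in 1 of them, without knockout-labelled library 3, at a log2 change of -1.20 (limma adjusted p 0.0894).

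The RNA that METTL16 is best known to methylate encodes MAT2A, the enzyme that makes S-adenosylmethionine, the methyl donor of every m6A enzyme. METTL16 is known to read a 9-base core in hairpins of its 3′ untranslated region. In the MAT2A transcript of GENCODE 29 (2819 bases, chromosome 2, plus strand, GRCh38) the letters TACAGAGAA or TACAGAAAA occur 6 times, all in the untranslated region, on the transcript strand. Whether the changes of METTL16 and MAT2A are linked was not tested. The sites are shown as the known target of METTL16, with 8 flanking bases on each side and the core in capitals.
MAT2A site 1, chr2:85543804-85543828: gcgtaggcTACAGAGAAgccttcaa
MAT2A site 2, chr2:85544591-85544615: tgatgtcaTACAGAGAAgtcacagg
MAT2A site 3, chr2:85544776-85544800: ggtgtagcTACAGAGAAaccagctt
MAT2A site 4, chr2:85544891-85544915: ggcgtaagTACAGAGAAgccatcac
MAT2A site 5, chr2:85545006-85545030: aggtgtccTACAGAAAAaccttggg
MAT2A site 6, chr2:85545114-85545138: tggtgtggTACAGAGAAgccagctt
Of these, 5 sites carry TACAGAGAA and site 5 carries TACAGAAAA. A match to either core was found in 7.69% of the longest coding transcripts of 19702 protein-coding genes, and at least 3 matches in 0.102% of them. A match is a description of the letters and no m6A was measured.

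MAT2A rose in both library types. It had 83.7, 83.03 and 69.4 TPM in the wild-type rRNA-depleted libraries and 364, 333 and 311 TPM in the knockout-labelled ones, with a wide gap between the groups. The log2 change was 2.06 (SE 0.14; limma adjusted p 0.00125), and it passed in all 16 alternatives, at 1.35 with the GC trend removed, which moved it most. The authors' deposited table puts MAT2A at 0.70 on the log2 scale (SE 0.09, adjusted p 4.08e-13). For METTL16 the authors' deposited table gives 0.02 (SE 0.14, adjusted p 0.944), so the rise of MAT2A was seen in both library types and the fall of METTL16 in the rRNA-depleted one. Whether the 2 library types differ for METTL16 was not tested.

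The promoter of METTL16 is shown because METTL16 is the only member called lower. It is the 250 bases before the RefSeq start (GRCh38.p14, chr17:2511889-2512138, minus strand, written 5′ to 3′). Capitals mark matches on either strand to 6 motifs: the GC box GGGCGG, the CCAAT box CCAAT, the TATA box TATAAA, the core of the interferon response element (GAAA, any 2 bases, then GAAA), the ETS site CCGGAAG and the E-box CACGTG.
METTL16 promoter: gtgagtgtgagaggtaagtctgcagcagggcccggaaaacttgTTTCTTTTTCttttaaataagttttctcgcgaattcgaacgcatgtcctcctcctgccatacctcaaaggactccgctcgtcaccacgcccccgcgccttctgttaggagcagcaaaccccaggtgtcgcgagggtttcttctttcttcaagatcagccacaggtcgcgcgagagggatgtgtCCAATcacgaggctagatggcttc
RefSeq promoters were matched for 8 of the 9 members. For RBM15, CBLL1 and 1 WTAP promoter (chr6:159726867-159727116), all 250 bases lie in GENCODE 29 exons of the same gene. Matches there can thus lie in transcribed sequence. The other WTAP promoter has 84 such bases. The interferon response element core was found in METTL16 alone among the 8, and in 3.02% of 35116 promoters of the same length. CCAAT was found in 6 of the 8 and in 32.0% of all promoters, GGGCGG in 4 (WTAP, RBM15, RBM15B and CBLL1) and in 42.6%. CCGGAAG was in 4 (METTL3, METTL14, ZC3H13 and CBLL1) and in 8.52%, CACGTG in RBM15 and RBM15B and in 6.34%, and TATAAA in METTL3 and in 10.7%. A member was counted if any of its promoters matched, and WTAP has more than 1, while the percentages are per promoter. These are letter matches, not binding sites.

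The make-up of the complex transcripts differed between the labels. The 9 genes together had 223, 211 and 243 TPM in the wild type and 313, 322 and 313 TPM under the knockout label, a 1.40-fold higher mean. Protein-coding genes as a whole went from between 60.7% and 63.6% of the TPM to between 75.8% and 77.3%. The median log2 change over all genes tested was 0.41, so the rise of the sum is not particular to the 9 genes. METTL16 took 21.3%, 23.6% and 27.01% of that sum in the wild-type libraries and 7.30%, 7.06% and 8.07% in the knockout-labelled ones. VIRMA went from 5.06% ± 0.52 (SD, n = 3) to 14.2% ± 0.29 (SD, n = 2) and RBM15 from 11.5% ± 1.81 to 19.6% ± 2.21. CBLL1 took 2.89%, 0.895% and 1.80% in the wild type and 10.9%, 10.9% and 11.7% under the knockout label. METTL14 went from 8.32% ± 1.21 to 3.86% ± 0.79. METTL3 took a like share, at 13.1% ± 2.39 against 13.1% ± 0.82, with a difference of -0.09 percentage points. The sum holds METTL16, a separate methyltransferase, so its lower share leaves more of the sum for every other member, METTL3 included. Shares without METTL16 were not computed. A two-sided exact permutation test of 3 against 2 samples cannot go below p = 0.1, which METTL16, VIRMA, CBLL1, RBM15 and METTL14 reached (0.18 adjusted over the 9 members), so none could pass.

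**Figure D2:**
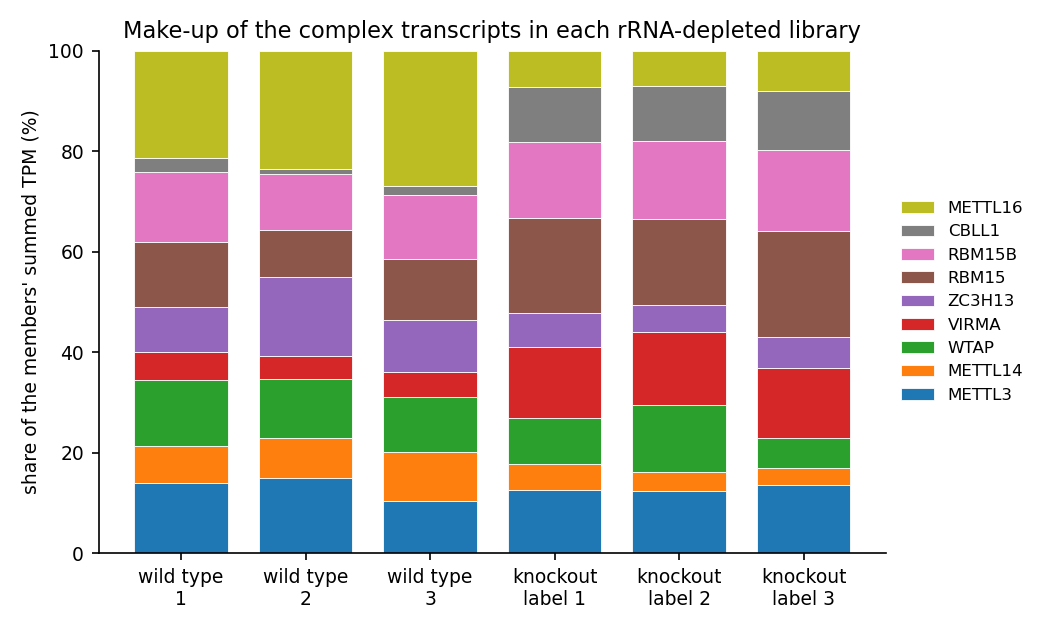
Share of each gene in the summed TPM of the 9 genes, in percent, as stacked bars for the 6 rRNA-depleted libraries. METTL16 shrinks from 21.3% to 27.01% of the sum in the wild type to between 7.06% and 8.07% in knockout-labelled ones, and VIRMA, CBLL1 and RBM15 widen.

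The order of the members by level therefore differed too. In the wild type METTL16 led, apart from the next gene in every library, and METTL3, RBM15B, WTAP, ZC3H13, RBM15 and METTL14 followed with ranges that overlapped from each to the next, between means of 29.4 and 18.9 TPM. VIRMA and then CBLL1 came last, each below the lowest library of the gene above it. Under the knockout label RBM15 led with 61.9 ± 6.38 TPM (SD, n = 2), followed by RBM15B, VIRMA, METTL3 and CBLL1, whose libraries did not overlap from each to the next. CBLL1 and WTAP overlapped, as did WTAP and METTL16, and ZC3H13 and METTL14 came last.

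In the poly(A) libraries 1 of the 9 members, CBLL1, passed in the authors' deposited table (adjusted p under 0.05), beside 19.9% of its 14009 genes with an adjusted p (9.55% higher and 10.3% lower). The authors' deposited table puts CBLL1 at 0.37 on the log2 scale (SE 0.10, adjusted p 0.00135), a fold of 1.30. It was thus higher under the knockout label in both library types, by a much larger value in the rRNA-depleted one, though that difference was not tested. The log2 fold changes of the other members in the authors' deposited table ran from -0.10 (RBM15B) to 0.24 (WTAP). Their median over the 9 was 0.09, beside 0.02 over all genes of the authors' deposited table with an adjusted p. The direction of that table was inferred, as described with the processing.

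The intervals bound what the poly(A) data leave possible. From the SE in the authors' deposited table, the 95% interval for METTL3 was -0.12 to 0.29, for METTL14 -0.15 to 0.36, for VIRMA -0.10 to 0.33 and for METTL16 -0.25 to 0.29. For VIRMA and METTL16 these ranges lie wholly outside the limma intervals of the rRNA-depleted libraries, 1.28 to 2.49 and -1.65 to -0.61. The same holds for CBLL1, at 0.18 to 0.56 in the authors' deposited table against 1.65 to 4.17, and for RBM15, at -0.47 to 0.55 against 0.64 to 1.83. The range for RBM15B, -0.80 to 0.61 in the authors' deposited table, overlaps its limma interval of 0.29 to 1.30. The scales differ, since TPM is a share of all RNA left after rRNA depletion and the median of all genes in the limma fit is 0.41. Taken relative to that median, the RBM15 interval is 0.23 to 1.42 and overlaps its poly(A) interval, while those of VIRMA (0.87 to 2.08), CBLL1 (1.24 to 3.76) and METTL16 (-2.06 to -1.02) lie outside theirs. The relative intervals of METTL14 (-1.79 to -0.21) and ZC3H13 (-1.52 to -0.11) lie below 0, and that of METTL14 lies outside its poly(A) interval. Relative intervals take the median as fixed and are not adjusted for the number of genes. With median ratio scaling neither METTL14 nor ZC3H13 passed (limma adjusted p 0.0684 and 0.109). Each passed in 1 of 16 alternatives, the one with the GC trend removed. For RBM15B the relative interval, -0.12 to 0.89, spans 0.

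**Figure D3:**
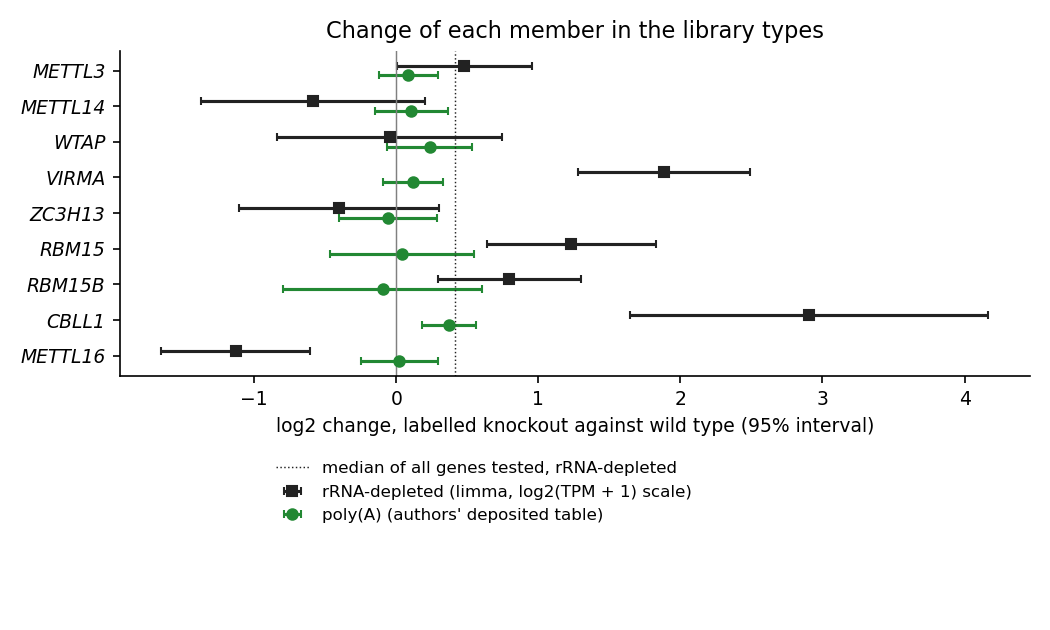
Log2 change of each member, knockout-labelled against wild-type libraries, with 95% intervals. Squares are limma estimates on log2(TPM + 1) from the rRNA-depleted libraries, circles are log2 fold changes in the authors' deposited table for the poly(A) libraries, and the dotted line is the median of all genes tested in the former (0.41). The squares spread from -1.13 (METTL16) to 2.91 (CBLL1), while the circles stay between -0.10 and 0.37.

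The library types also placed the members at different levels. Each gene was ranked by level per length among 12152 protein-coding genes above 0 in both tables. CBLL1 stood at percentile 22.3 in the wild-type rRNA-depleted libraries, at 64.7 in the knockout-labelled ones and at 89.4 by the mean normalized count per kilobase of the authors' deposited table, which pools both genotypes. It was the lowest member in the first and the highest in the last. RBM15B ran the other way, at percentile 66.5 and 74.2 in the rRNA-depleted libraries and 29.8 in the authors' deposited table, and so did RBM15, at 64.6, 79.6 and 41.5. VIRMA was at percentile 43.6 in the wild type, and at 71.4 under the knockout label beside 72.9 in the authors' deposited table. METTL16 was at 80.9 in the wild type, and at 52.6 under the knockout label beside 53.2 in the authors' deposited table. METTL14 was at 56.7 and 34.8 in the rRNA-depleted libraries and at 76.1 in the authors' deposited table. METTL3 kept a like rank throughout, at 67.5, 69.2 and 75.9, the last from the authors' deposited table.

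**Figure D4:**
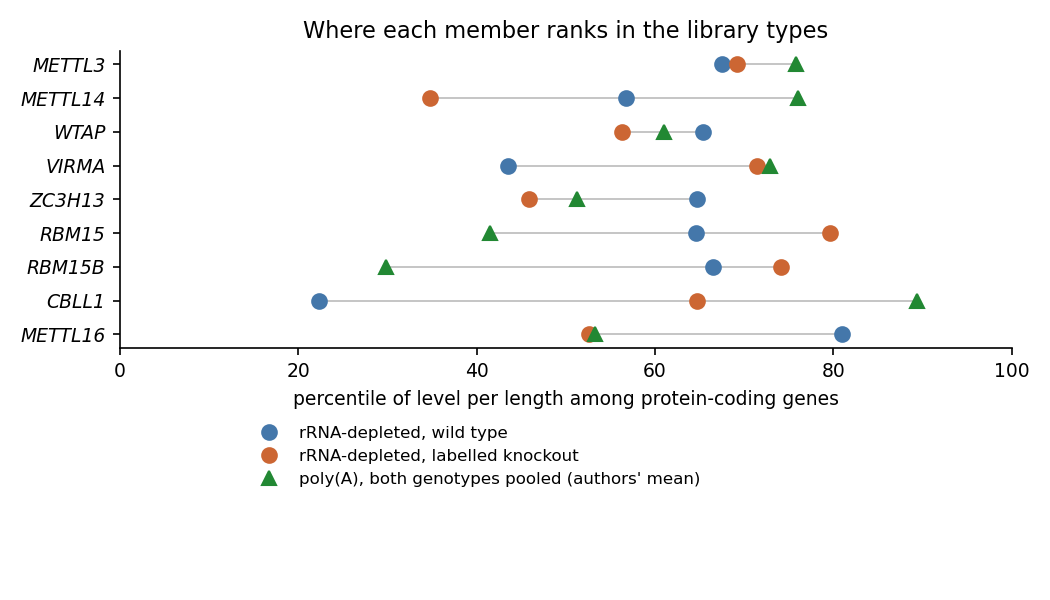
Percentile of each member by level per gene length among 12152 protein-coding genes. Circles are the wild-type and the knockout-labelled rRNA-depleted libraries and triangles the mean of the authors' deposited poly(A) table. For VIRMA and METTL16 the triangle lies beside the knockout-labelled circle (72.9 beside 71.4, and 53.2 beside 52.6), and CBLL1 spans the widest range, from 22.3 to 89.4.

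Transcript GC content moved with the changes over all genes. The median log2 change fell from 1.19 in the 2295 genes of at most 40% GC to -0.33 in the 2036 genes above 60%. The members did not follow 1 order of GC content: VIRMA (40.7%) and CBLL1 (40.3%) rose, METTL14 (38.4%) and ZC3H13 (41.6%) had negative values, and RBM15 (54.5%) and RBM15B (55.9%), the members of highest GC content, rose. With the trend removed 7 of 9 members passed in limma, beside 26.5% of all genes, 4 higher (11.4% of all genes) and 3 lower (15.1%), since METTL14 and ZC3H13 joined METTL16 among the lower.

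**Figure D5:**
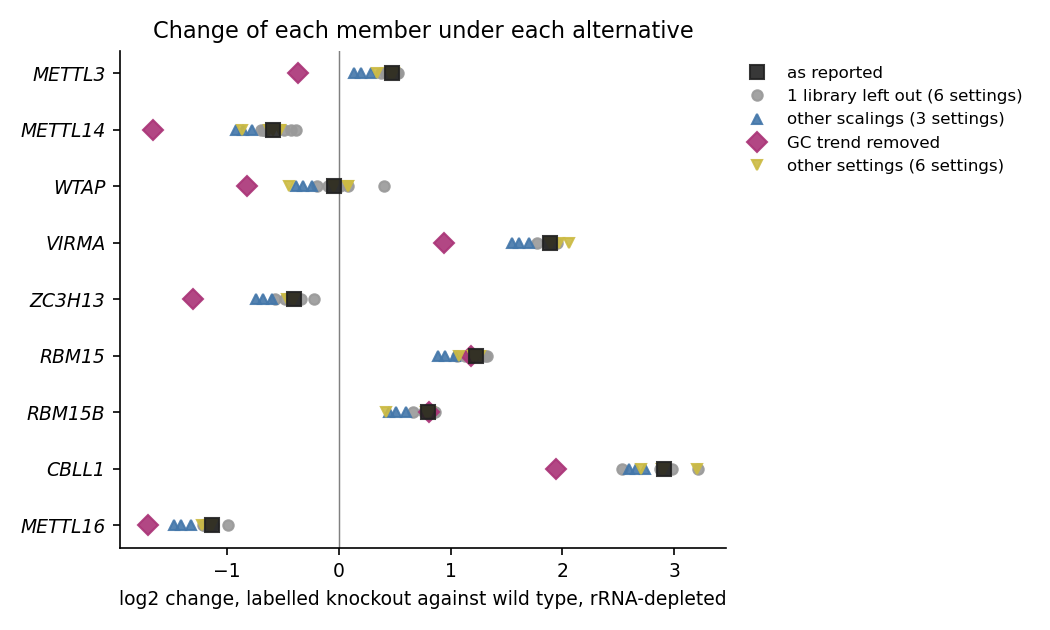
Log2 change of each member in the rRNA-depleted libraries as reported (squares) and under each of 16 alternatives. Diamonds, the fits with the GC trend removed, lie furthest left for 7 of the 9 genes and close to the square for RBM15 and RBM15B. METTL3 and WTAP are the genes with points on both sides of 0.

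The rest of the m6A pathway was described through 24 genes in 3 lists. In the rRNA-depleted libraries 13 were higher and 1 lower at a limma adjusted p under 0.05, beside 22.9% and 12.4% of all genes, and their median log2 change was 1.36, beside 0.41 over all genes and 0.48 over the 9 members. The authors' deposited table had 5 of the 24 higher and 3 lower, beside 9.55% and 10.3% of all its genes, with a median of 0.03. With the GC trend removed the count in the rRNA-depleted libraries was 9 (6 higher and 3 lower), beside 26.5% of all genes (11.4% higher and 15.1% lower). Fewer also passed without knockout-labelled library 3, where the knockout label has 1 sample.

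Of 13 erasers and readers, 8 rose and 0 fell in limma, beside 22.9% and 12.4% of all genes, with 0 lower at an unadjusted p under 0.05. The scaling bears on this split. HNRNPA2B1, called higher at 0.53 (limma adjusted p 0.0202), was at 0.57 without knockout-labelled library 3 and turned to -0.45 with the GC trend removed. YTHDC2 and HNRNPC, also called higher, did not pass with that trend removed (limma adjusted p 0.306 and 0.220). YTHDC1, at -0.36 (limma adjusted p 0.127), was called lower under 4 of 16 alternatives, and IGF2BP3, at -0.36 (limma adjusted p 0.216), under 2. With the GC trend removed YTHDC1 and IGF2BP3 were at -1.32 and -1.31 (limma adjusted p 0.00367 and 0.0110). YTHDF1, IGF2BP2 and RBMX stayed called higher in that fit. RBMX, a reader of m6A-dependent RNA structure, went from between 17.3 and 25.3 TPM to between 109 and 123 TPM (log2 change 2.43, SE 0.21, limma adjusted p 0.00207). It has near-identical copies, so reads may be split. IGF2BP2, which stabilises m6A-marked mRNAs, rose with means of 88.4 ± 11.9 TPM (SD, n = 3) and 227 ± 7.98 TPM (SD, n = 2) and a limma adjusted p of 0.00321. YTHDF3, a cytoplasmic reader, rose from a mean of 19.4 ± 3.55 to 68.9 ± 13.0 TPM (limma adjusted p 0.00535), but not past the threshold with the GC trend removed (limma adjusted p 0.0850). IGF2BP2 and YTHDF3 also passed as higher in the authors' deposited table, at 0.37 and 0.48 on the log2 scale (adjusted p 0.00442 and 0.00118). In the authors' deposited table HNRNPA2B1 was lower, at -0.27 (adjusted p 1.54e-05), and RBMX was at 0.0086 (adjusted p 0.953). FTO, an eraser, had 3.34, 4.88 and 5.65 TPM in the wild type and 11.9, 14.9 and 13.7 TPM under the knockout label. Its limma adjusted p of 0.0454 held in 4 of 16 alternatives. Leaving out wild-type library 1, 2 or 3 gave FTO a limma adjusted p of 0.0787, 0.05996 or 0.0588, and leaving out knockout-labelled library 2 or 3 gave 0.0583 or 0.172.

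Of 5 m6A enzymes outside the complex, 1 rose and 1 fell, near the 22.9% and 12.4% of all genes. TRMT112, the partner that stabilises the ribosomal RNA methyltransferase METTL5, fell, with means of 326 ± 40.1 TPM (SD, n = 3) and 202 ± 18.4 TPM (SD, n = 2), by 0.69 on the log2 scale (limma adjusted p 0.0188). The call was kept in 13 of 16 alternatives. It was lost without wild-type library 1 (limma adjusted p 0.0537), with eBayes without trend, and without knockout-labelled library 3 (log2 change -0.78). The authors' deposited table had TRMT112 lower too, at -0.74 with an adjusted p of 2.06e-05. METTL4 was at 1.24 TPM in wild-type library 1, listed at 0 in the other two and at 5.27, 5.74 and 9.03 TPM under the knockout label (limma adjusted p 0.0205, but 0.0558 without wild-type library 3 and 0.127 without knockout-labelled library 3). It passed in 10 of 16 alternatives, and had a log2 change of 1.33 with the GC trend removed (limma adjusted p 0.169). METTL5 itself did not pass, with 22.3, 18.1 and 6.27 TPM against 49.1, 31.5 and 36.1 TPM (limma adjusted p 0.102).

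Of 6 genes of methyl donor supply, 4 rose and 0 fell in limma, beside 22.9% and 12.4% of all genes, with 0 lower at an unadjusted p under 0.05. Beside MAT2A, AHCY, which removes the product that inhibits methyltransferases, rose from 86.2 ± 11.5 to 235 ± 18.4 TPM (log2 change 1.44, limma adjusted p 0.00302). AHCY was lower in the authors' deposited table, at -0.48 with an adjusted p of 4.6e-05, so its direction differed between the library types. AHCYL1 rose from 33.2 ± 3.75 to 85.5 ± 4.78 TPM (limma adjusted p 0.00422), and was at 0.06 with an adjusted p of 0.784 in the authors' deposited table. MAT2A was the 1 gene of this list that passed as higher in both.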

How the data were processed

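The authors deposited TPM for the 6 rRNA-depleted libraries and, for the poly(A) libraries, a table whose columns, per the file headers, are a mean normalized count (a pooled signal), a log2 fold change with its SE, a Wald score and p-values before and after adjustment. The submitters' processing notes name Trimmomatic, STAR, DESeq2 and the build hg38, with no role or order. The counting tool and annotation are not given in the sources used here. The direction of the deposited log2 values is not stated: positive was taken as higher in knockout because 91.5% of 177 genes that changed by 1 or more (log2) and passed in each of the 2 tables then shared their sign.

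Reads were recovered as TPM times GENCODE 29 length over the worth of 1 read, and 90.9% of values above 0 came out whole to within 0.02 reads. The length gave whole reads for 8 members, and for WTAP a length of 5830 bases was used in place of 6419. The test was limma 3.58.1 (R 4.3.3, eBayes with trend) on log2(TPM + 1) for genes reaching 1 TPM in 3 or more libraries. The pseudocount was 1, which understates changes of low genes. Figures used matplotlib 3.10.9.

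This fit was also tested on simulated data, where it missed most of the changes put in, and its false calls fell on genes of few reads. Alternatives changed the pseudocount, filter, scaling, GC trend, depth, variance trend, treatment of knockout-labelled libraries 1 and 2, replicate block and threshold, or left out 1 library. Poisson intervals cover counting error only.

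The members and lists were chosen with earlier results of these data known. All members are named, with the 3 genes of smallest adjusted p in each pathway list, MAT2A, FTO and the 3 profiles closest to METTL3. YTHDC1, YTHDC2, YTHDF1, IGF2BP3, HNRNPA2B1, HNRNPC, TOX4, DCAF1 and CBLL1-AS1 were added after their values were seen.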

Additional observations from a re-analysis of the deposited data

How the results depend on the processing

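Of the 5 members called in the rRNA-depleted libraries, VIRMA, CBLL1 and METTL16 kept their call in 15 of 16 alternatives, RBM15 in 14 and RBM15B in 8, and all 5 kept their direction in all 16. The count of members called was 5 as reported, 3 with reads thinned to the shallowest library, 1 at an adjusted p of 0.01, and 0 to 5 when 1 library was left out. The count over all genes was 5220 as reported, 2242 at an adjusted p of 0.01, and 1663 to 5185 with 1 library left out. Median ratio scaling changed the split of calls over all genes from 64.8% to 48.6% higher, rescaling over protein-coding genes to 51.7% and the GC correction to 42.9%, and the median over all genes was 0.11, 0.17 and 0.04 under these. Pathway genes passing were 14 as reported, 9 with the GC trend removed, 8 at an adjusted p of 0.01 and 7 to 14 with 1 library left out. METTL3 was at -0.37 with the GC trend removed and at 0.46 (limma adjusted p 0.0486) with 6 separate libraries. WTAP, not called under any setting, turned to 0.086 with 6 separate libraries, with or without the replicate block, and ran from -0.20 to 0.40 with 1 library left out. The share of METTL3 among the members differed by -1.44 to 0.83 percentage points with 1 library left out. In the authors' deposited table an adjusted p of 0.01 gave 1811 genes in place of 2782 and a minimum absolute log2 fold change of 1 gave 647 genes and 0 members, where 1 member passed by adjusted p.

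Replicate numbers are shared between labels, but same-numbered libraries did not deviate together (correlations of -0.02 to 0.02), and not every library deviated most like its own number. With the replicate block on 6 separate libraries 5 members, 17 pathway genes and 6037 genes passed, against 6, 16 and 6880 without it. The member lost under the block was METTL3 (limma adjusted p 0.113). Depth limits the low end: CBLL1 rests on 10 wild-type reads in all.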
